A study of Mus musculus with 4 samples.

Results

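Nrf2 target antioxidant genes were examined in whole livers of mice that lack Cnot3 in hepatocytes. The set was chosen by symbol and held 10 genes: the transcription factor gene Nfe2l2 and the targets Nqo1, Gclc, Gclm, Txnrd1, Srxn1, Cbr3, Gsr, G6pdx and Slc7a11. A probe set is a group of short probes that is read as 1 value and can match more than 1 transcript. Every probe set that named one of these symbols alone was taken, which gave 19 of the 45037 probe sets on the array for 9 of the 10 genes. No probe set named G6pdx alone, so that gene was not analysed here. Total RNA from 2 Cnot3KO livers and 2 Control livers, 1 array per liver, was hybridised to an Affymetrix expression array that covers the mouse genome. All mice were 4 weeks old and on a C57BL/6 background. Cnot3KO mice carried floxed Cnot3 and Cre recombinase driven by the albumin promoter, which is active in hepatocytes and, before birth, in hepatoblasts that can also form cholangiocytes, so which cells other than hepatocytes keep the gene is not settled by these data. Control livers are wild type by their labels, whereas in the study's methods the controls were flox/+, flox/flox, Alb-cre with +/+ or Alb-cre with flox/+, and which of these each array held is not stated, nor is the sex. Nothing states that the livers of a group came from separate litters, and p-values then measure only the spread between these samples.

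The Ccr4-Not complex, of which the Cnot3 protein is part, removes poly(A) tails and so promotes mRNA decay. Nrf2, the product of Nfe2l2, is a transcription factor that Keap1 normally delivers to a ubiquitin ligase for degradation. When oxidants or electrophiles modify Keap1, Nrf2 accumulates, pairs with small Maf proteins and binds antioxidant response elements near genes for glutathione synthesis, the thioredoxin system, quinone and carbonyl reduction and NADPH supply. In liver this programme protects hepatocytes that handle drugs and reactive metabolites.

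The question was whether these genes differed in level between Cnot3KO and Control livers. Values are log2 of the deposited intensities, and each difference is Cnot3KO minus Control with its standard error (SE), with n = 2 arrays per group. Of the 19 probe sets 17 passed the filter on low values, and each of the 17 lay above the 20th percentile on all 4 arrays, so none entered through 1 group alone. A gene stands for its probe set with the highest mean. Of the 9 measured members 4 rose in Cnot3KO livers (Cbr3, Srxn1, Nqo1 and Nfe2l2) and 0 fell at a limma adjusted p under 0.05. The same call was made for 12.2% of all 16758 genes in the higher direction and 4.64% in the lower direction. Both Cnot3KO arrays lay above both Control arrays for those 4 members, and below them for Gclc and Gsr, against 34.8% and 30.3% of all genes. By probe set, 6 member probe sets rose and 1 fell, where 8.48% and 4.78% of the 38405 tested probe sets did so. At an unadjusted p under 0.05, 4 members were higher and 0 lower. The median difference of the 9 members was 0.10, and that of all genes was 0.00. The members' median ranged from 0.03 (without replicate 1 of Cnot3KO) to 0.25 (without replicate 1 of Control) with 1 array left out, and was 0.58 over the 8 members above the 50th percentile and 0.00216 with the mean of each gene's probe sets. In RNA from whole liver, fewer cells of a type and less RNA per cell cannot be told apart.

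**Figure D1:**
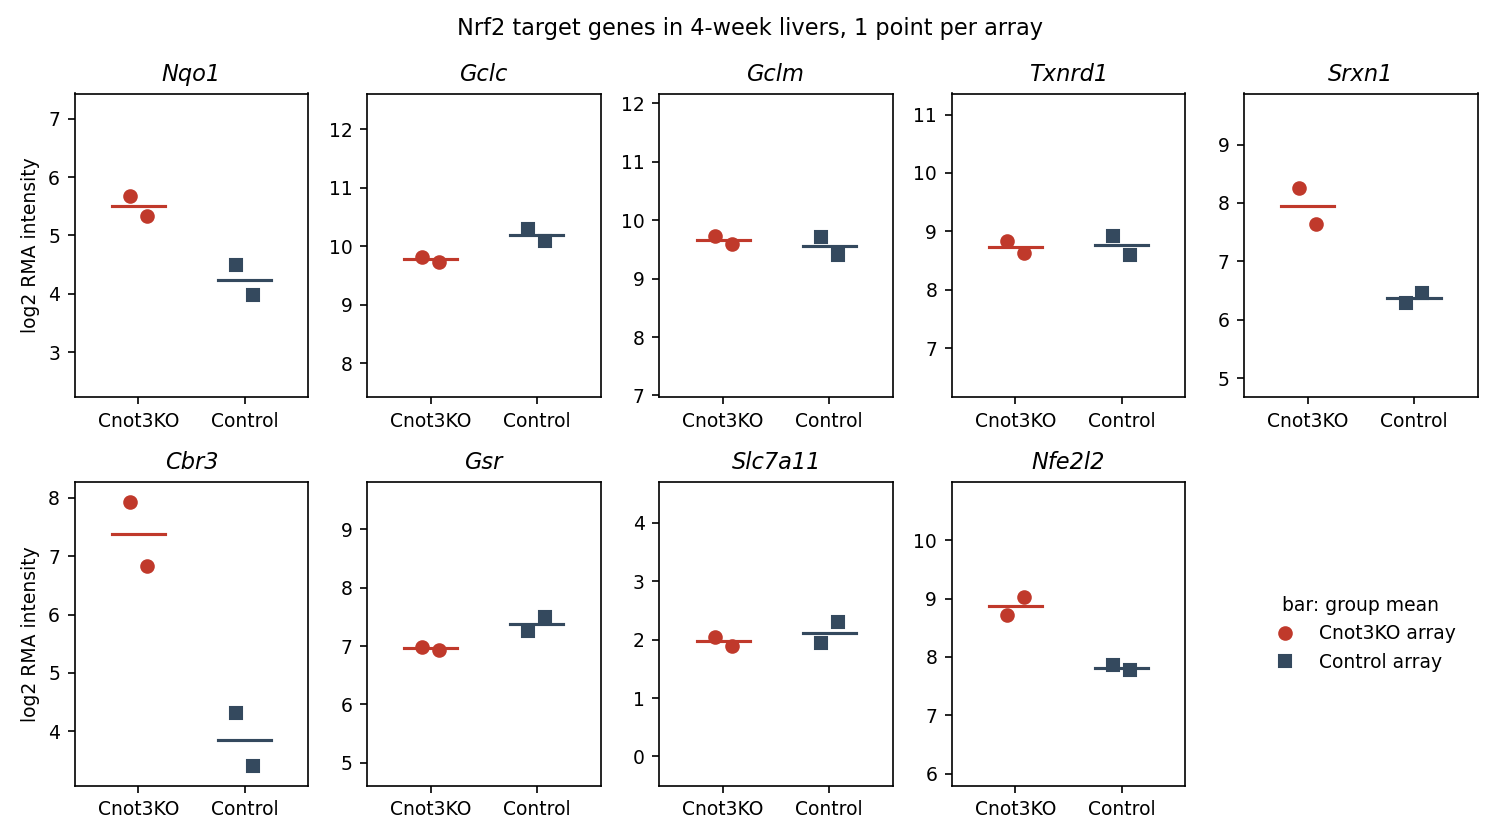
Log2 RMA intensity (y axis of each panel) of the 9 measured genes on each array, with the Cnot3KO arrays as circles on the left, the Control arrays as squares on the right and the group mean as a bar. Each panel spans the same number of log2 units; Cbr3, Srxn1, Nqo1 and Nfe2l2 sit higher on both Cnot3KO arrays, Gclc and Gsr lower, and the groups overlap for Gclm, Txnrd1 and Slc7a11.

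The 250 bases before the transcription start of the 4 genes that rose are shown because they are where a response element shared by the risers could be looked for. They are RefSeq sequences of the GRCm38.p6 build, written 5′ to 3′ on the strand of the gene. Capitals mark matches on either strand to TGANNNNGC, a loose form of the core of the antioxidant response element.
Cbr3 (chr16:93682969-93683218, plus strand): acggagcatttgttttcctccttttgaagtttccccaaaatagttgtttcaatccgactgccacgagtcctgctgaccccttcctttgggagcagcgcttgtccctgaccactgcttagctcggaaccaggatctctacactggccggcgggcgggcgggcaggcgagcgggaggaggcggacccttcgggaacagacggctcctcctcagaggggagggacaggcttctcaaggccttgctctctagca
Srxn1 (chr2:152105274-152105523, plus strand): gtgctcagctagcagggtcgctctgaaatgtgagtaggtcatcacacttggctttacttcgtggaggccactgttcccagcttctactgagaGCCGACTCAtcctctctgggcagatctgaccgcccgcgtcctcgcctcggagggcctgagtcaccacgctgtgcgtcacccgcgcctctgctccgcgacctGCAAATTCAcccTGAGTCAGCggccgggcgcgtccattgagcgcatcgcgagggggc
Nqo1 (chr8:107403206-107403455, minus strand): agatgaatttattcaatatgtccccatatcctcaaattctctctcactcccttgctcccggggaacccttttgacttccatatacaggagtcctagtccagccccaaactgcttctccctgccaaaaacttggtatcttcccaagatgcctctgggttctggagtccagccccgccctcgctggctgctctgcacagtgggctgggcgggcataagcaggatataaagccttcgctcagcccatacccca
Nfe2l2 (chr2:75704664-75704913, minus strand): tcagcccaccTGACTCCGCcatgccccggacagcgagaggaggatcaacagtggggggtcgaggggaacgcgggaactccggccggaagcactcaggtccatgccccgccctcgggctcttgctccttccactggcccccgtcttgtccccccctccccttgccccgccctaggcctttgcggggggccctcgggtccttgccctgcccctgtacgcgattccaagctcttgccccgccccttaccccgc
Srxn1 held 3 such matches, Nfe2l2 held 1, and in the windows of Cbr3 and Nqo1 these letters did not occur. Sequence farther from the start was not searched, so an element of either gene outside its window would be missed. Positions are counted back from the start, with -1 the base before it. The Nfe2l2 match, at -240 to -232, reads TGACTCCGC and also fits the stricter core TGACNNNGC. The Srxn1 match at -45 to -37, TGAGTCAGC, overlaps a match to TGANTCA, the site of AP-1, and a further TGANTCA match lies at -102 to -96.

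The strict core was also present in members that did not rise, and a short stretch around each is given for comparison with the risers.
Gclm: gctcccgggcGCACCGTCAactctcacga
Txnrd1: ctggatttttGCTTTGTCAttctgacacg
On the opposite strand the Gclm match reads TGACGGTGC at -134 to -126 and the Txnrd1 match reads TGACAAAGC at -92 to -84, in 1 of the Txnrd1 promoters. Of the 10 promoters found for 8 members, 4 held the strict core, where 10.2% of all 32851 promoters did. These were promoters of Nfe2l2, Gclm, Txnrd1 and G6pdx, the last a gene without a measured level. The loose core was in 7 of these 10 promoters and in 35.2% of all promoters. The TGANTCA site was in 1 of the 10 and in 6.75% of all. The members were picked as known targets of Nrf2, which binds such elements, so these shares are no test of enrichment. A match is a description of the letters and not evidence of binding.

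Nfe2l2 mRNA itself rose. Its main probe set read 8.71 and 9.02 in Cnot3KO livers, against 7.86 and 7.77 in Control livers. The groups were separate on these 4 arrays, and the difference was 1.05 ± 0.18, a 2.07-fold higher level (adjusted p = 0.0244, 95% interval 0.59 to 1.51). A second Nfe2l2 probe set read 4.95 and 4.62 in Cnot3KO livers and 4.55 and 3.66 in Control livers and was not called (0.68 ± 0.33, adjusted p = 0.230). Without any 1 of the arrays the call of the main probe set was lost (differences 0.90 to 1.21, adjusted p 0.0651 to 0.118). An array measures mRNA, and Nrf2 is controlled largely through its protein, which was not measured.

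Of the reductases, Cbr3 had the largest difference of any measured member. Cbr3, an NADPH-dependent carbonyl reductase, read 7.93 and 6.84 in Cnot3KO livers, against 4.31 and 3.41 in Control livers. The lower Cnot3KO array was well above the higher Control array, although the arrays within each group also differed by about 1 log2 unit. Cbr3 rose by 3.52 ± 0.46, which is 11.5-fold (adjusted p = 0.0125, 95% interval 2.37 to 4.67). It was the one member whose main probe set kept its call without each array in turn (differences 2.98 to 4.07, adjusted p 0.00669 to 0.0482). With 16 added before the log the difference was 2.58 and missed the threshold (adjusted p = 0.0574).

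Nqo1, which reduces quinones to hydroquinones, read 5.68 and 5.34 in Cnot3KO livers, against 4.50 and 3.98 in Control livers. The groups did not overlap, and Nqo1 rose by 1.27 ± 0.24, or 2.42-fold (adjusted p = 0.0306). Its call was lost without any 1 of the arrays (differences 1.01 to 1.53, adjusted p 0.0541 to 0.126) and with 16 added before the log (0.82, adjusted p = 0.0708).

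Srxn1 encodes sulfiredoxin, which restores peroxiredoxins that peroxide has over-oxidised. Its main probe set read 8.26 and 7.64 in Cnot3KO livers, against 6.29 and 6.46 in Control livers, and rose by 1.58 ± 0.25, or 2.98-fold (adjusted p = 0.0192). A second read 7.04 and 6.96 in Cnot3KO livers, against 4.99 and 5.24 in Control livers, and rose by 1.89 ± 0.18, or 3.71-fold (adjusted p = 0.00688). The groups were separate on both probe sets. Another, of lower signal, read 5.29 and 4.50 in Cnot3KO livers and 2.88 and 3.66 in Control livers and also rose (1.63 ± 0.37, adjusted p = 0.0472). The remaining one, near the middle of the array's range, read 3.86 and 3.78 in Cnot3KO livers and 3.73 and 4.04 in Control livers and was not called (-0.06 ± 0.19, adjusted p = 0.840). One of the 4 Srxn1 probe sets thus did not follow the others, and which part of the transcript each reads is not known here. The second probe set kept its call without each array in turn (adjusted p from 0.0176 to 0.0387). The main one kept it without replicate 2 of Cnot3KO (1.89, adjusted p = 0.0174) and lost it without replicate 1 of Cnot3KO (1.27, adjusted p = 0.0601), replicate 1 of Control (1.49, adjusted p = 0.0874) and replicate 2 of Control (1.66, adjusted p = 0.0606). The probe set of lower signal was kept without replicate 2 of Cnot3KO (adjusted p = 0.0366) and lost without each of the other arrays (adjusted p from 0.0592 to 0.146). Its call was also lost with no filter (adjusted p = 0.0553), with a further quantile normalization (adjusted p = 0.0531), with centring on ribosomal protein genes (adjusted p = 0.0515) and with 16 added before the log (adjusted p = 0.134).

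**Figure D2:**
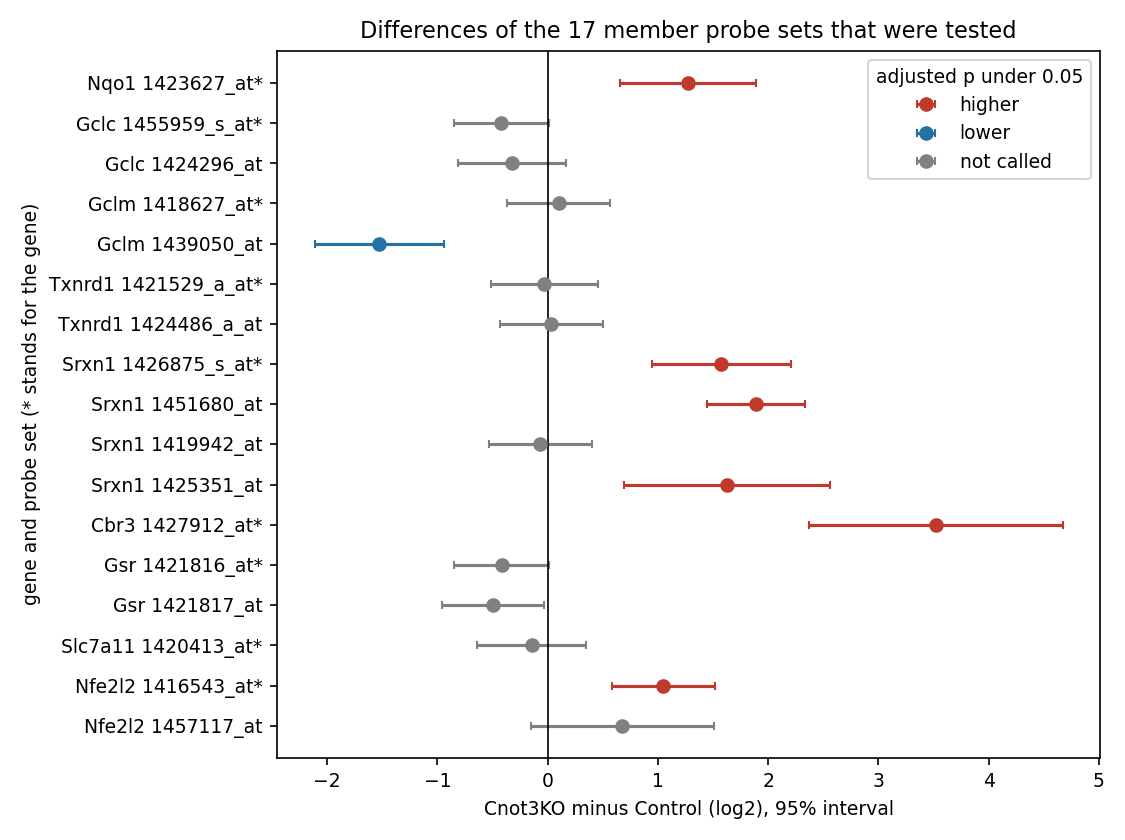
Difference of Cnot3KO minus Control (x axis, log2) with its 95% interval for the 17 member probe sets that were tested (y axis, gene and probe set), red where higher, blue where lower and grey where not called at an adjusted p under 0.05. An asterisk marks the probe set that stands for its gene; Cbr3 lies farthest right at 3.52, and 1 Gclm probe set lies farthest left at -1.53.

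None of the members of glutathione synthesis was called higher. Gclc encodes the catalytic subunit of glutamate-cysteine ligase, the rate-limiting enzyme of glutathione synthesis. It read 9.82 and 9.73 in Cnot3KO livers and 10.30 and 10.09 in Control livers, a difference of -0.42 ± 0.17 that was not called (adjusted p = 0.169, 95% interval -0.85 to 0.01). Both Cnot3KO arrays were below both Control arrays, and a second Gclc probe set gave -0.32 ± 0.19 (adjusted p = 0.317).

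Gclm encodes the modifier subunit of the same ligase, and its probe sets disagreed. The main one read 9.73 and 9.60 in Cnot3KO livers and 9.72 and 9.41 in Control livers, with overlapping groups and a difference of 0.10 ± 0.19 (adjusted p = 0.749, 95% interval -0.37 to 0.57). The other read 7.11 and 6.95 in Cnot3KO livers, against 8.83 and 8.28 in Control livers, and fell by 1.53 on the log2 scale with an SE of 0.23, a level 2.88-fold lower in Cnot3KO livers (adjusted p = 0.0178). This was the 1 member probe set that fell. Its call held without replicate 2 of Control (adjusted p = 0.0321) and was lost without replicate 1 of Control (adjusted p = 0.0546), replicate 1 of Cnot3KO (adjusted p = 0.0529) or replicate 2 of Cnot3KO (adjusted p = 0.0596). With the mean of both probe sets Gclm stood at -0.71 (adjusted p = 0.0655), so its direction depended on the probe set read.

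Slc7a11, the cystine importer that supplies cysteine for glutathione, was close to the bottom of the range. Its tested probe set read 2.05 and 1.90 in Cnot3KO livers and 1.94 and 2.30 in Control livers, between the 20th percentiles (1.54 to 1.69) and the medians (3.09 to 3.14) of the arrays. The groups overlapped (-0.14 ± 0.20, adjusted p = 0.657), and a difference in a transcript of such low signal may not be detectable. A second probe set, at 1.45 and 0.97 in Cnot3KO livers and 1.23 and 0.83 in Control livers, did not pass the filter.

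The reductases that recycle glutathione and thioredoxin were not called either. Gsr, which returns oxidised glutathione to its reduced form with NADPH, read 6.99 and 6.93 in Cnot3KO livers and 7.26 and 7.49 in Control livers (-0.42 ± 0.17, adjusted p = 0.172). Its second probe set read 6.91 and 6.77 in Cnot3KO livers and 7.19 and 7.49 in Control livers (-0.50 ± 0.18, adjusted p = 0.140). On both probe sets each Cnot3KO array was below each Control array. Txnrd1, the cytosolic thioredoxin reductase, read 8.83 and 8.63 in Cnot3KO livers and 8.92 and 8.60 in Control livers. These values overlapped, with a difference of -0.03 ± 0.19 and a 95% interval of -0.51 to 0.45 (adjusted p = 0.929). Its sign turned to 0.01 with centring on array medians. A second Txnrd1 probe set, of low signal, gave 0.04 (adjusted p = 0.916), and a further one did not pass the filter.

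The rise of 4 members was then set beside the regulators of Nrf2. Of 14 regulators and partners 1 rose and 1 fell, where 12.2% and 4.64% of all genes did so. Their median difference was 0.01 and ranged from -0.27 to 0.19 with 1 array left out. Sqstm1, an adaptor protein that binds Keap1 and draws it into autophagy, read 10.86 and 10.42 in Cnot3KO livers, against 9.32 and 9.61 in Control livers (1.18 ± 0.22, adjusted p = 0.0298). Bach2, a repressor that competes with Nrf2-related factors for Maf recognition elements, read 4.01 and 3.18 in Cnot3KO livers, against 5.51 and 6.98 in Control livers (-2.65 ± 0.54, adjusted p = 0.0351). Both calls depended on which arrays were used. Sqstm1 was called only when replicate 2 of Cnot3KO was the array left out, with a highest adjusted p of 0.131 without the others, and Bach2 was lost without replicate 2 of either group, with a highest adjusted p of 0.0852. Keap1 read 7.20 and 7.15 in Cnot3KO livers and 7.10 and 6.76 in Control livers and was not called (0.25 ± 0.19, adjusted p = 0.412), nor was its second probe set (0.61 ± 0.22, adjusted p = 0.135).

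Among other genes known as Nrf2 targets, 26 of 28 were tested, of which 9 rose and 2 fell, with a median difference of 0.42 against 0.00 over all genes. Of all genes 12.2% rose and 4.64% fell. At an unadjusted p under 0.05 in limma, 11 of the list were higher and 6 lower, and Gsta3 was among the lower ones (-1.64 ± 0.40, adjusted p = 0.0551). Ptgr1, which reduces reactive unsaturated aldehydes and ketones, read 10.28 and 9.97 in Cnot3KO livers, against 6.01 and 5.57 in Control livers, and rose by 4.33 ± 0.23 (adjusted p = 0.00319). Cbr1, the carbonyl reductase paralogous to Cbr3, read 11.35 and 11.36 in Cnot3KO livers, against 9.41 and 8.72 in Control livers, and rose by 2.30 ± 0.26 (adjusted p = 0.00955). Gsta2, a glutathione S-transferase, rose by 1.98 ± 0.16 (adjusted p = 0.00565). The other genes that rose were Akr1b8, Gstm3, Pgd, Osgin1, Gsta4 and Ugdh. Me1, the cytosolic malic enzyme that yields NADPH, went the other way, with 5.93 and 6.28 in Cnot3KO livers, against 8.62 and 8.88 in Control livers (-2.64 ± 0.21, adjusted p = 0.00491), and Aox1 also fell. Hmox1, heme oxygenase 1, read 5.67 and 5.05 in Cnot3KO livers and 5.93 and 3.69 in Control livers, so that the Control arrays enclosed both Cnot3KO arrays (0.55 ± 0.72, adjusted p = 0.639). Ptgr1, Cbr1, Gsta2 and Me1 kept their calls without each array in turn, whereas the count of 9 was between 5 (without replicate 1 of Control) and 8. The median of the list was between 0.11 (without replicate 1 of Cnot3KO) and 0.67 (without replicate 2 of Cnot3KO), and was 0.22 without replicate 2 of Control and 0.59 without replicate 1 of Control.

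**Figure D3:**
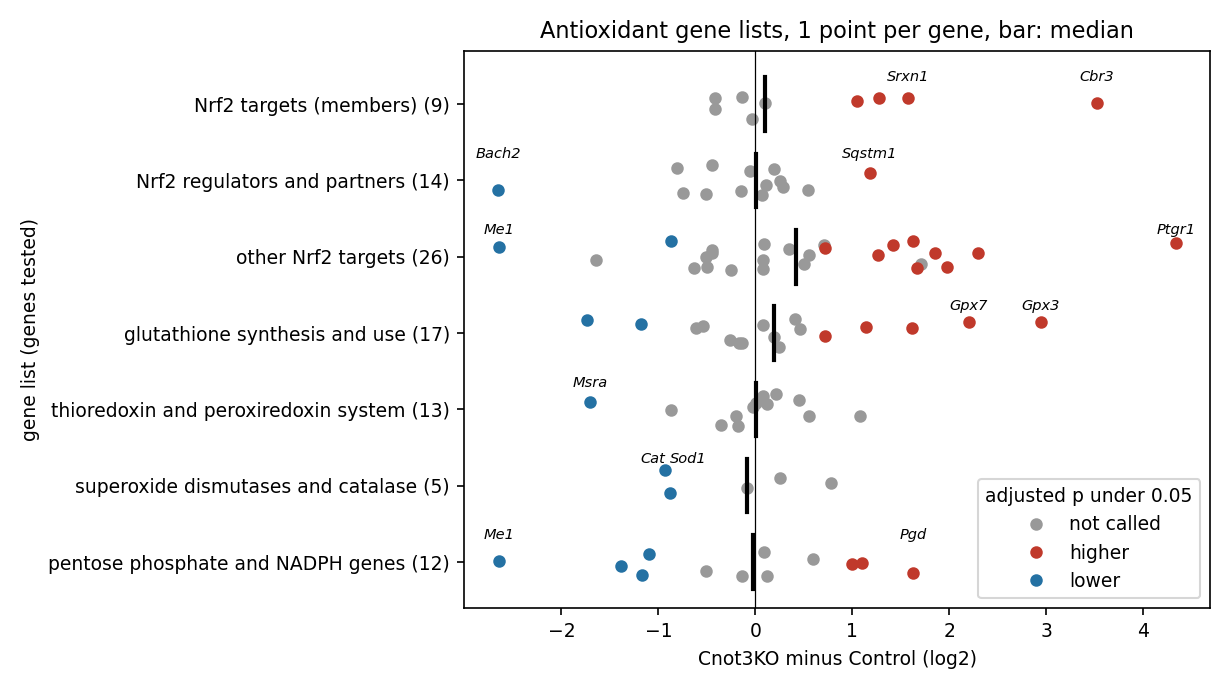
Difference of Cnot3KO minus Control (x axis, log2) for each tested gene of the members and 6 related lists (y axis, number of genes tested), red where higher, blue where lower and grey where not called, with a bar at the median of the list. The medians are 0.10 for the members and 0.42 for the other Nrf2 targets, and up to 2 called genes with the largest difference are named in each list.

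The wider glutathione list, 17 of 18 genes tested, had 5 genes that rose and 2 that fell, where 12.2% and 4.64% of all genes did so. Its median was 0.19 (-0.05 without replicate 1 of Control, 0.08 without replicate 2 of Cnot3KO). Gpx3, a glutathione peroxidase secreted into plasma, read 7.54 and 7.30 in Cnot3KO livers, against 4.73 and 4.23 in Control livers (2.94 ± 0.23, adjusted p = 0.00488). Slc3a2, the heavy chain with which Slc7a11 forms the cystine exchanger and which also serves other transporters, read 8.93 and 9.15 in Cnot3KO livers, against 7.60 and 7.23 in Control livers (1.62 ± 0.20, adjusted p = 0.0117). Slc3a2 thus rose while its partner Slc7a11 stayed near the floor of the arrays in both groups. Chac1, which degrades glutathione, fell, with 4.55 and 4.21 in Cnot3KO livers, against 6.18 and 6.05 in Control livers (-1.74 ± 0.19, adjusted p = 0.00918). Gpx7 rose by 2.20 ± 0.42 (adjusted p = 0.0299), a call lost without either Cnot3KO array (highest adjusted p 0.0771). Gss, glutathione synthetase, was at 0.46 ± 0.23 and was not called (adjusted p = 0.248), and its second probe set was at 0.84 ± 0.34 (adjusted p = 0.169). With 1 array left out the list had 2 to 4 genes that rose, with 2 of them without either Cnot3KO array.

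The partners of Txnrd1 and Srxn1 are the thioredoxins and peroxiredoxins. The list of the thioredoxin and peroxiredoxin system was wider and also held Txnip, Txnl1, Sesn1, Sesn2, Sesn3, Txnrd2, Txnrd3 and Msra. Of its 16 genes 13 were tested, and 0 rose and 1 fell, where 12.2% and 4.64% of all genes did so. The median was 0.01 and ranged from -0.04 to 0.02 with 1 array left out. At an unadjusted p under 0.05, 2 were higher and 1 lower, and with 16 added before the log 1 rose and 1 fell. The main probe set of Txn1, the cytosolic substrate of Txnrd1, differed by 0.01 ± 0.16 (adjusted p = 0.980), and a second by -0.55 ± 0.18 (adjusted p = 0.106). For the mitochondrial reductase Txnrd2 the main probe set differed by 0.08 ± 0.18 (adjusted p = 0.796) and the others by -0.95 ± 0.25 (adjusted p = 0.0658), -0.56 ± 0.21 (adjusted p = 0.141) and 0.33 ± 0.24 (adjusted p = 0.399). The probe sets of both genes thus differed in sign, and none was called. Prdx1, Prdx5 and Prdx6 are named by no probe set alone and were not analysed here. Msra, which repairs oxidised methionine, was the gene that fell, with 7.47 and 7.60 in Cnot3KO livers, against 9.16 and 9.33 in Control livers (-1.71 ± 0.17, adjusted p = 0.00735).

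Superoxide dismutases and catalase remove superoxide and peroxide directly. The list of 5 genes also counted Ccs, the copper chaperone of Sod1, which does not. Of the 5, 0 rose (1 was higher at an unadjusted p under 0.05) and 2 fell, where 12.2% and 4.64% of all genes did so. The median was -0.09. That median ranged from -0.27 (without replicate 2 of Cnot3KO) to 0.10 (without replicate 1 of Cnot3KO) and was -0.72 with the mean of each gene's probe sets. The value of -0.09 is that of Sod2, the mitochondrial superoxide dismutase. Its main probe set read 10.03 and 10.40 in Cnot3KO livers and 10.31 and 10.29 in Control livers and was not called (adjusted p = 0.792). By quantitative PCR the study reported significantly less Sod2 mRNA in livers that lack Cnot3, which this probe set does not show. Any other Sod2 probe set is not given here, so this 1 reading does not set the array against that report. Cat, catalase, read 10.96 and 10.72 in Cnot3KO livers, against 11.85 and 11.70 in Control livers (-0.93 ± 0.18, adjusted p = 0.0300). Sod1, the cytosolic superoxide dismutase, read 10.98 and 11.26 in Cnot3KO livers, against 11.97 and 12.02 in Control livers (-0.88 ± 0.18, adjusted p = 0.0352). The groups were separate for both, but both calls were lost without any 1 of the arrays, with a highest adjusted p of 0.152 for Cat and 0.195 for Sod1.

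G6pdx, the member that could not be read, opens the pentose phosphate pathway, and 12 other genes of that pathway and of NADPH supply were set beside it. Of these Rpe, Rpia, Tkt, Taldo1 and Pgls form no NADPH, and Me2, a mitochondrial malic enzyme, mainly uses NAD. Of the 12, 3 rose and 4 fell, where 12.2% and 4.64% of all genes did so. Among the genes that rose Pgd is an NADPH source, and among those that fell Me1, Idh1 and Nnt are. Pgd, the next NADPH-yielding enzyme of that pathway, read 9.59 and 9.24 in Cnot3KO livers, against 7.62 and 7.95 in Control livers (1.63 ± 0.21, adjusted p = 0.0129), a call lost without replicate 1 of Control (adjusted p = 0.0576). The others that rose were Me2 and Rpia. Beside Me1 and Nnt, the genes that fell were Idh1 (-1.39 ± 0.25, adjusted p = 0.0262) and Rpe (-1.17 ± 0.20, adjusted p = 0.0234). Without 1 array the list had 0 to 1 genes that rose and 1 to 2 that fell. Pgd, Me1, Taldo1 and Tkt stand in this list and in that of other Nrf2 targets.

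Levels of cell type markers were set beside the members. For the counts below, 12.2% of all genes rose and 4.64% fell. All 9 hepatocyte markers were tested and 0 were called by limma (before adjustment 1 was higher and 1 lower), and their summed intensity was 62609 and 65926 in Cnot3KO livers and 63130 and 62007 in Control livers. That sum is weighted to the brightest markers, such as Alb, at 13.74 and 13.79 in Cnot3KO livers. The largest differences were those of Tat (-0.61 ± 0.24, adjusted p = 0.160) and Pck1 (-0.44 ± 0.21, adjusted p = 0.228), whereas Apoa1 was at 0.40 ± 0.16 (adjusted p = 0.157). Of 7 tested cholangiocyte markers of 8, 6 rose and 0 fell, and their sum was 1157 and 829 in Cnot3KO livers, against 62.6 and 53.3 in Control livers. In Cnot3KO livers Prom1 was the brightest of them (9.20 and 9.06, against 4.48 and 3.09 in Control livers). Epcam, Tspan8, Cldn7 and Sox9 rose by 2.79 to 4.63. The keratin gene Krt19 rose by 1.45 ± 0.30 (adjusted p = 0.0376), and Krt7 was not called (1.02 ± 0.36, adjusted p = 0.129). Of 8 stellate cell and fibroblast markers 5 rose, with sums of 5337 and 3936 in Cnot3KO livers and 2079 and 1684 in Control livers. That count was 1 without replicate 1 of Cnot3KO, 2 without either Control array, 4 without replicate 2 of Cnot3KO and 2 with 16 added before the log, whereas 4 to 7 cholangiocyte markers rose with 1 array left out. Of 8 macrophage markers 2 rose, Gpnmb (3.60 ± 0.52, adjusted p = 0.0153) and Cd68 (2.34 ± 0.23, adjusted p = 0.00727). At an unadjusted p under 0.05 in limma, 5 of the list were higher and 0 lower. Macrophage sums were 2443 and 2750 in Cnot3KO livers and 1563 and 1466 in Control livers. The replicate of Cnot3KO with the higher cholangiocyte and stellate cell sums had the higher Cbr3, Srxn1 and Nqo1 values, whereas Nfe2l2 was higher on the other. That replicate was also the higher for the members not called: Gclc, Gclm, Txnrd1, Gsr and Slc7a11. In the Control pair, the replicate with the higher sums had the higher Cbr3, Nqo1 and Nfe2l2 values (7.86 against 7.77 for Nfe2l2) but the lower Srxn1 value (6.29 against 6.46). The 7 endothelial markers had 0 calls by limma and 0 at an unadjusted p under 0.05 (sums 747 and 709 in Cnot3KO, 636 and 831 in Control). The lymphoid list had 1 gene that rose of 5 tested (203 and 219 in Cnot3KO, 130 and 122 in Control) and the neutrophil list 1 of 6 (164 and 115 in Cnot3KO, 78.4 and 79.8 in Control). The lymphoid gene that rose was Ptprc (0.93, adjusted p = 0.0239). It encodes CD45, which the study also stained to show infiltrating macrophages, so its rise is not particular to lymphoid cells. Of 6 erythroid markers 2 fell (513 and 1032 in Cnot3KO, 707 and 937 in Control). With 1 array left out the lymphoid call was lost each time, the neutrophil call held only without replicate 2 of Cnot3KO, and 0 (without replicate 1 of Control) to 3 (without replicate 2 of Control) erythroid markers fell. Cd79a, Mpo and Rhag lay below the median of every array, and no marker was at 0. The part of these cells in the differences of the Nrf2 target genes was not tested.

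**Figure D4:**
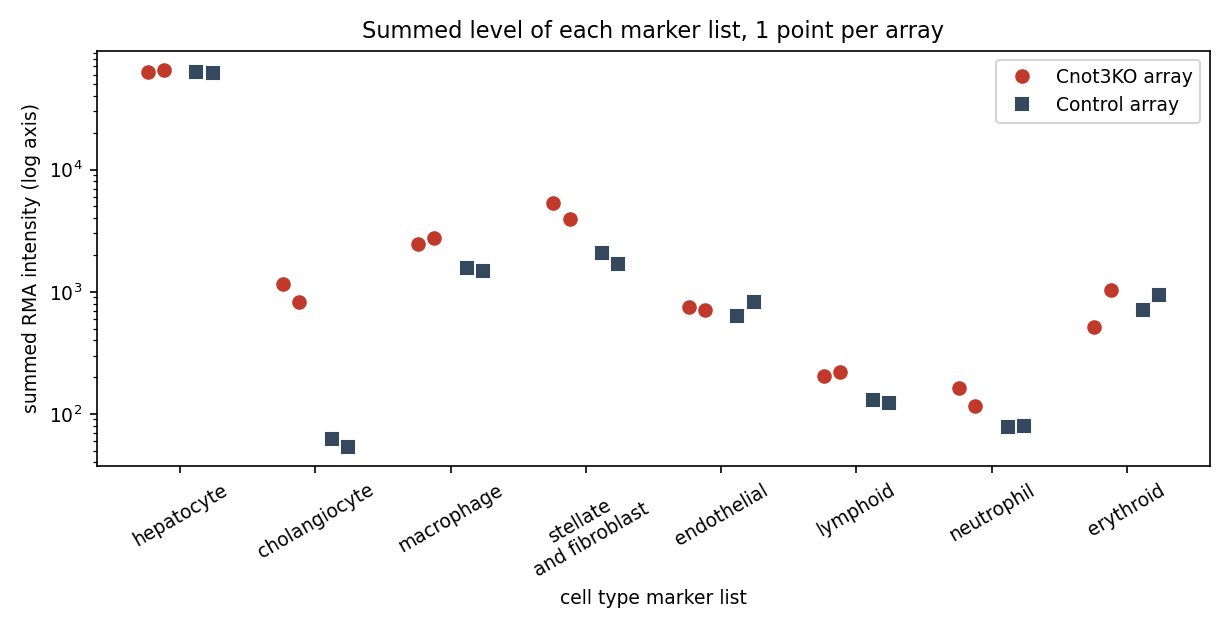
Summed RMA intensity (y axis, log scale) of the tested genes of 8 cell type marker lists (x axis) on each array, with Cnot3KO arrays as circles on the left and Control arrays as squares on the right of each list. The hepatocyte sums lie together between 62007 and 65926, and the cholangiocyte sums are 829 and 1157 in Cnot3KO livers, against 53.3 and 62.6 in Control livers.

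Across the whole array, medians were 3.09 and 3.09 in Cnot3KO livers and 3.11 and 3.14 in Control livers, and Pearson's r across tested probe sets was 0.989 within the Cnot3KO pair, 0.981 within the Control pair and 0.937 to 0.948 between groups. The deleted gene was lower on its main probe set, with Cnot3 at 5.15 and 5.30 in Cnot3KO livers, against 5.99 and 6.04 in Control livers (-0.79 ± 0.16, adjusted p = 0.0372). A second Cnot3 probe set was not called (-0.40 ± 0.19, adjusted p = 0.2175). Whether either probe set reads the deleted part is not known here.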

How the data were processed

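Values of 4 arrays, 2 Cnot3KO and 2 Control livers, were taken as the authors deposited them, as linear probe set intensity made from total RNA with Robust Multi-array Average (RMA, version not stated), which corrects background, normalizes between arrays and summarises probes. Whether other arrays were normalized with them is not stated. The deposited intensities, from 1.27 to 16933, were turned to log2 with no constant added. Probe sets above the 20th percentile of their array on at least 1 of 4 arrays were kept, following the lower 20% cut-off of the methods (38405 of 45037). Names came from the platform annotation, in which 34945 probe sets name 1 gene, 932 several and 9160 none, and only the first were named. Detection calls were not used, and precision is limited by the number of arrays.

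Groups were compared without pairing by lmFit and eBayes (limma 3.58.1, R 4.3.3), 2-sided, with Benjamini-Hochberg adjustment over the 38405 probe sets and a threshold of 0.05. Promoters of 250 bases were searched on both strands in RefSeq sequences, in which 8 of the 10 members have an entry, and Gclc and Gsr do not. Tables and figures were made in Python 3.11.15 (pandas 2.3.3, numpy 2.4.6, matplotlib 3.10.9).

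The members, the gene and marker lists and the tests were chosen with earlier results of these data known. Named were all members, Cnot3, up to 4 called genes of each list with the largest difference, and the partners or paralogs Keap1, Hmox1, Slc3a2, Gss, Txn1, Txnrd2 and Cbr1. Further called genes of a list, genes not tested, Sod2, Gsta3, Alb, Apoa1, Krt7 and markers low on every array were named after their values were seen. Some genes of the rule, among them single markers, were left out for space. Alternatives for the filter were none or a mean above the 50th percentile. Alternatives for scaling were a further quantile normalization, centring on medians, centring on 16 ribosomal protein genes and 16 added before the log. Alternatives for the probe sets were to leave out those ending in _x_at or _s_at or to average all of a gene. Alternatives for the test were the replicate number as a block, an intensity-dependent or a robust prior, the methods' t-test (unpaired, equal variance) and leaving out each array.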

Additional observations from a re-analysis of the deposited data

How the results depend on the processing

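Of 143 comparisons of a member with an alternative, 118 kept direction and side of the threshold, 18 lost the call, 0 gained one and 7 turned direction. Slc7a11 did not pass the stricter filter and has no value there. The 4 members that rose became 1 with 16 added before the log, 0 by the methods' t-test after Benjamini-Hochberg adjustment (3 at its unadjusted p) and 1 to 2 with 1 array left out, where the lone array is assumed to vary like the other group. All 7 turns were in members not called. Txnrd1 stood at 0.00765 with centring on medians, at 0.00216 with the mean of its probe sets and from -0.19 (without replicate 2 of Control) to 0.13 (without replicate 1 of Control) with 1 array left out, and was also above 0 without replicate 2 of Cnot3KO (0.07). Gclm stood at -0.71 with the mean of its probe sets and from -0.0546 (without replicate 2 of Control) to 0.25 (without replicate 1) with 1 array left out. Slc7a11 lay from -0.33 (without replicate 1 of Control) to 0.0394 (without replicate 2). Of all probe sets, 3258 rose and 1837 fell, against 0 and 1 by the methods' t-test after adjustment, 3860 higher and 3977 lower at its unadjusted p, 2187 that rose and 1213 that fell with 16 added, and with 1 array left out 1194 to 1973 that rose and 508 to 1394 that fell. At an unadjusted p under 0.05 in limma, 6346 were higher and 5550 lower. The cause of these changes was not tested, except that leaving out an array leaves fewer samples.

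Groups share replicate numbers 1 and 2, but nothing says that a number marks a litter or day, and with 2 pairs the correlation of their deviations (0.232 over 38405 probe sets) cannot show pairing. With the replicate number as a block, 4 members rose again (adjusted p 0.0271 for Nqo1, 0.0381 for Srxn1, 0.0165 for Cbr3 and 0.0429 for Nfe2l2), the Srxn1 probe set of lower signal lost its call (adjusted p = 0.0871), Sqstm1 and Bach2 lost theirs, and 2967 probe sets rose and 1716 fell. Centring moved all differences by 0.04 (array medians) or -0.07 (ribosomal protein genes, of which 0 rose and 1 fell).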
